A study of Mus musculus with 16 samples.

Results

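The genes described here encode the proteasome and the factors that assemble it in mouse CD4+ T cells, and were taken as every measured gene whose annotated symbol begins with Psma, Psmb, Psmc, Psmd, Psme, Psmf or Psmg and a digit. The rule returned 45 of 16475 genes. Of these, 43 encode subunits, activators, an inhibitor or assembly factors, and 2 share only the spelling (Psmc3ip, a cofactor of meiotic recombination, and Psme3ip1) and were counted apart. CD4+ T cells of C57BL/6 mice carrying a Foxp3-GFP reporter, 6 to 12 weeks old, were sorted from lymph nodes and spleens by GFP into TFoxp3+ cells (the regulatory subset) and TFoxp3- cells (the other CD4+ T cells, naive and memory cells not separated). Each subset was measured after activation for 36 h on plate-bound antibodies against CD3 and CD28 (5 µg/ml) with recombinant human IL-2 (100 U/ml), or directly ex vivo, where RNA of 2 experiments was pooled per sample. The translation inhibitor cycloheximide (100 µg/ml), which freezes ribosomes in place, was used in both states, in all buffers and media of the ex vivo cells and, per the methods, in the medium of the activated cells once the culture ended. From every population, mRNA engaged by at least 3 ribosomes (polysome-associated mRNA) and cytosolic mRNA were hybridised to Affymetrix arrays. The 16 arrays therefore fall into 8 groups of 2: activated TFoxp3+, activated TFoxp3-, ex vivo TFoxp3+ and ex vivo TFoxp3-, each as polysome-associated and as cytosolic mRNA.

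The proteasome degrades proteins marked with ubiquitin. Its 20S core is a barrel of alpha subunits (Psma), which gate the entry, and beta subunits (Psmb), some of which cut peptide bonds, and its 19S cap consists of ATPases (Psmc) that unfold the substrate and non-ATPase subunits (Psmd) that bind and remove ubiquitin. In lymphocytes the catalytic subunits Psmb6, Psmb7 and Psmb5 are replaced in part by Psmb9, Psmb10 and Psmb8, which form the immunoproteasome and alter the peptides made for antigen presentation, and activators (Psme) can take the place of the cap.

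All 45 genes matched a mouse gene of RefSeq (GRCm38.p6) by Entrez number. RefSeq holds 51 protein-coding genes of the same spelling, and Psma3, Psma4, Psma5, Psmb3, Psmb5 and Psme2b are not analysed here. The 43 comprised 5 alpha subunits, 3 structural beta subunits (Psmb1, Psmb2, Psmb4), 2 constitutive catalytic subunits (Psmb6, Psmb7), 3 immunoproteasome subunits (Psmb8, Psmb9, Psmb10), the thymoproteasome subunit Psmb11, 6 ATPases of the 19S cap, 11 non-ATPases, 3 chaperones of 19S assembly (Psmd5, Psmd9, Psmd10), 4 activators, the inhibitor Psmf1 and 4 chaperones of 20S assembly. RefSeq also lists 6 pseudogenes of this spelling, copies of Psma5, Psmb5, Psmb6 and Psmb7, so that the signals of Psmb6 and Psmb7 could include such copies. No filter on signal was applied, and all 43 were tested in every comparison.

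Values are log2 intensities, normalised over arrays, so that a level is relative to the other genes of its array. Array medians were between 4.84 and 5.06, and probe signals near or below them, as for Psma8 and Psmb11, give no reliable size of a change. The medians of the 43 genes were higher, from 8.27 to 10.36 over the arrays. Shares and medians over all genes, given below beside those of the 43, therefore include many genes of lower signal. Pearson's r between the 2 arrays of a group was 0.888 and 0.887 in the activated TFoxp3+ groups (cytosolic, polysome-associated), the lowest of all groups, and the median gap between arrays over the 43 genes was 0.72 in activated TFoxp3+ cytosolic mRNA. The methods call the 2 arrays of a group biological duplicates, and the labels do not name the animals or cultures behind each. The CD4+ T cell markers (6 of 6 measured) were above the array medians in every group, and Foxp3 was higher in TFoxp3+ than TFoxp3- cells by 6.72 ex vivo and 4.55 after activation in cytosolic mRNA. Of 6 B cell markers, 3 were above the array medians in both ex vivo TFoxp3- groups, 1 in both ex vivo TFoxp3+ groups and at most 1 in activated groups. Among them, Cd79b was at 8.02 to 9.07 in ex vivo and 3.77 to 7.22 in activated arrays. The part of this signal in the differences with activation was not tested. The arrays carry 3 naming series (all ex vivo arrays, the activated TFoxp3- arrays and the activated TFoxp3+ arrays), so that activation, and the subsets once activated, cannot be told apart from the series, whereas polysome-associated minus cytosolic mRNA lies within a series. The 3′ minus 5′ signal of actin, a measure of RNA integrity and amplification, ranged from -0.59 to -0.20 in all activated arrays, against 4.16 to 4.64 in ex vivo TFoxp3+ arrays and 0.82 to 1.38 in ex vivo TFoxp3- arrays, and its part in the results below was not tested.

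Activation changed individual subunits in opposite directions (the plot of activated minus ex vivo differences). In TFoxp3+ cells, 8 of 43 genes were higher and 17 lower after activation in cytosolic mRNA (adjusted p under 0.05, limma), where 16.9% and 14.4% of all genes were called in these directions (31.4% in either). In their polysome-associated mRNA 11 were higher and 6 lower, against 14.7% and 14.6% of all genes. In TFoxp3- cells 11 were higher and 7 lower in cytosolic mRNA (13.6% and 12.5% of all genes), and 16 were higher and 4 lower in polysome-associated mRNA (14.1% and 16.4% of all genes, 30.6% in either direction). The median difference over the 43 was -0.27 and 0.36 in TFoxp3+ cells (cytosolic, polysome-associated) and 0.35 and 0.59 in TFoxp3- cells, beside 0.13, 0.09, 0.11 and 0.02 over all genes. The split in TFoxp3+ cytosolic mRNA changed under cyclic loess, which gave 12 higher and 10 lower. The median was then -0.02 over the 43 and -0.0005 over all genes. Loess also gave 16 higher and 4 lower in TFoxp3+ polysome-associated mRNA, 15 and 6 in TFoxp3- cytosolic mRNA and 22 and 2 in TFoxp3- polysome-associated mRNA. The shares of all genes above belong to the reported fit, and those under the alternatives are not given. Leaving out array 1 lowered the count in TFoxp3+ cytosolic mRNA to 16 (6 higher, 10 lower), array 2 that in TFoxp3+ polysome-associated mRNA to 11 (8 and 3), and array 3 that in TFoxp3- cytosolic mRNA to 10 (7 and 3). In these sorted populations, fewer cells of a type and less RNA per cell cannot be told apart.

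**Figure D1:**
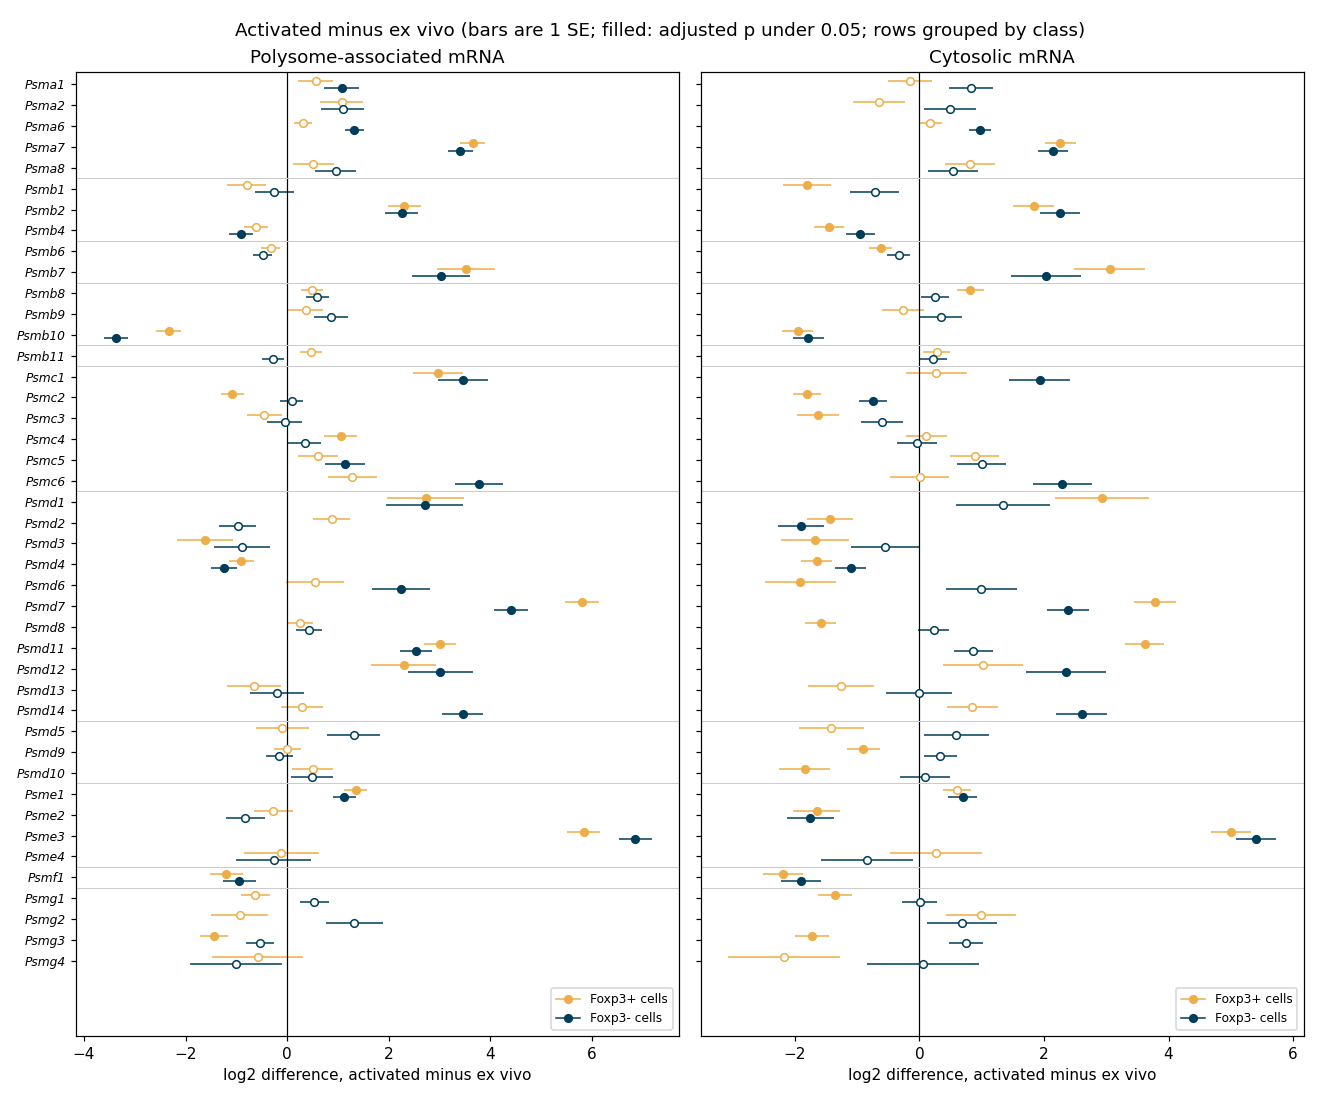
Log2 differences, activated minus ex vivo, for the 43 proteasome genes in polysome-associated (left) and cytosolic mRNA (right), with TFoxp3+ cells in yellow and TFoxp3- cells in dark blue; points are fitted differences, bars are 1 SE and filled points passed an adjusted p under 0.05. Psme3 lies farthest to the right in each panel, at 5.84 and 6.85 (left) and 5.01 and 5.41 (right), and Psmb10 is far to the left in both.

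A set of 8 genes was called in 1 direction in 4 of 4 activation comparisons. Psma7, Psmb2, Psmb7, Psmd7 and Psme3 were higher throughout (5 of 43, beside 4.5% of all genes), and Psmb10, Psmd4 and Psmf1 were lower throughout (3 of 43, beside 5.44% of all genes). Another 9 genes were called in none (45.4% of all genes), among them Psmb9, Psmd13 and the activator Psme4, and Psmd6 was lower in TFoxp3+ cytosolic mRNA but higher in TFoxp3- polysome-associated mRNA.

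Among the activators, Psme3, which encodes the nuclear PA28 gamma ring that opens the core without ATP or ubiquitin, had the largest difference of the 43 genes in every activation comparison. Its signal was 11.79 and 11.83 in activated TFoxp3+ cytosolic mRNA, against 6.62 and 6.99 ex vivo. In activated TFoxp3- cytosolic mRNA it was 12.24 and 11.93, against 6.69 and 6.66 ex vivo. All activated arrays were well above all ex vivo arrays, with no overlap. The increase was 32.2-fold in TFoxp3+ cytosolic mRNA (log2 difference 5.01, SE 0.32, adjusted p = 7.42e-06, limma) and 42.4-fold in TFoxp3- cytosolic mRNA (5.41, adjusted p = 3.49e-06). In polysome-associated mRNA the difference was 5.84 (adjusted p = 2.36e-06) in TFoxp3+ and 6.85 (adjusted p = 7.65e-07) in TFoxp3- cells, and all 4 calls held under each of the 21 alternatives. The interferon-inducible partners Psme1 and Psme2, which form the PA28 alpha-beta ring, did not move together. Psme1 was higher after activation in 3 of the 4 comparisons, by 1.35 in TFoxp3+ polysome-associated mRNA and by 0.69 and 1.13 in TFoxp3- cytosolic and polysome-associated mRNA, and its difference in TFoxp3+ cytosolic mRNA was 0.61 without a call. Psme2 was lower in cytosolic mRNA, by -1.65 in TFoxp3+ and -1.75 in TFoxp3- cells, and missed the threshold in polysome-associated mRNA (-0.27 and -0.82). The call of Psme2 in TFoxp3- cells was lost when array 3 (ex vivo) or array 11 (activated) was left out (adjusted p up to 0.0511).

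Promoters of the gene that rose most and of the gene that fell most in polysome-associated mRNA are shown, because each held a copy of the E-box (CACGTG), the motif that Myc and USF factors bind. The windows run from 250 bases before to 50 after the annotated start (RefSeq, GRCm38.p6), each 5′ to 3′ on its gene's strand, with motifs in capitals. For Psme3 (chr11:101315963-101316262, plus strand) these are the E-box at -44 and a reversed CCAAT box at -14, and for Psmb10 (chr8:105938343-105938642, minus strand) the E-box at -116.
Psme3: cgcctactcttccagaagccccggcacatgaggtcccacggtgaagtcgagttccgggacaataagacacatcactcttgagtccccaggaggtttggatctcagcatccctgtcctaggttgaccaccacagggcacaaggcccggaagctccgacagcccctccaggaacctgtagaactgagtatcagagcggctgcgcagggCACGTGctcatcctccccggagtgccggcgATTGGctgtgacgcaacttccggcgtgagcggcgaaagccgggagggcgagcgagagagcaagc
Psmb10: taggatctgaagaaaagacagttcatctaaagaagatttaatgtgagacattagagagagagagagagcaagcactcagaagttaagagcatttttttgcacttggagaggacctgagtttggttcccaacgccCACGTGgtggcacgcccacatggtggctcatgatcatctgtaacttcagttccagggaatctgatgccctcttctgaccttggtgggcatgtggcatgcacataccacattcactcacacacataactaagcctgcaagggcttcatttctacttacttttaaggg
Windows of 35 of the 43 genes were in the table. With both strands searched, CACGTG was found in 3 of them (Psmb10, Psmd9, Psme3), or 8.57%, beside 8.09% of 27025 genes. CCAAT was in 12 (34.3%, beside 41.1%), the antioxidant response core TGACNNNGC, which NRF1 and NRF2 bind, in 5 (14.3%, beside 13.99%) and the interferon response core (GAAA, any 2 bases, GAAA) in 4 (11.4%, beside 3.99%), namely Psmd4, Psmd9, Psme1 and Psmg4. A match is a run of letters and no measured site.

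The catalytic subunits of one activity moved in opposite directions. Psmb7, the constitutive subunit with trypsin-like activity, had signals of 9.58 and 10.57 in activated TFoxp3+ cytosolic mRNA, against 7.30 and 6.73 ex vivo, and of 10.66 and 11.31 in activated TFoxp3- cytosolic mRNA, against 8.98 and 8.93 ex vivo. In polysome-associated mRNA it was at 11.39 and 9.45 in activated TFoxp3+ cells, against 7.24 and 6.55 ex vivo, and at 11.57 and 11.63 in activated TFoxp3- cells, against 8.90 and 8.25 ex vivo. Activated arrays lay above the ex vivo arrays of their subset in each case, although the 2 activated TFoxp3+ polysome arrays were far apart. The differences were 3.05 (SE 0.57, adjusted p = 0.00245, limma) and 3.52 in TFoxp3+ cells and 2.03 (adjusted p = 0.0225) and 3.03 in TFoxp3- cells (cytosolic, polysome-associated), the third of these being lost without array 3, 7 or 11 (adjusted p up to 0.128).

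Psmb10, its immunoproteasome counterpart, had signals of 9.87 and 9.73 in activated TFoxp3+ cytosolic mRNA, against 11.85 and 11.66 ex vivo, and of 10.78 and 10.63 in activated TFoxp3- cytosolic mRNA, against 12.50 and 12.49 ex vivo. In polysome-associated mRNA the values were 9.48 and 8.69 in activated TFoxp3+ cells, against 11.49 and 11.33 ex vivo, and 9.10 and 9.20 in activated TFoxp3- cells, against 12.50 and 12.54 ex vivo. Every activated array was below every ex vivo array. Psmb10 fell by 1.96 (SE 0.24, adjusted p = 0.000248, limma) and 2.33 in TFoxp3+ cells and by 1.78 and 3.37 (adjusted p = 5.12e-06) in TFoxp3- cells (cytosolic, polysome-associated), and these calls held under all 21 alternatives.

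The other catalytic subunits changed little. Psmb6, the constitutive subunit with caspase-like activity, was at 12.21 and 12.22 in activated TFoxp3+ cytosolic mRNA, against 12.85 and 12.82 ex vivo (-0.62, adjusted p = 0.0272, limma), a call lost under 8 of 21 alternatives, among them leaving out array 1, 5, 13 or 15 (adjusted p up to 0.116) and cyclic loess (-0.10, adjusted p = 0.711). In polysome-associated mRNA it was at 12.03 and 12.36 in activated and 12.48 and 12.56 in ex vivo TFoxp3+ cells. Its signal in TFoxp3- cells was 12.33 and 12.33 (cytosolic) and 12.23 and 12.28 (polysome-associated) after activation, against 12.69 and 12.63, and 12.89 and 12.58, ex vivo, with no call.

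Psmb9, its immunoproteasome counterpart, was not called in any activation comparison. In TFoxp3+ cells it was at 10.53 and 11.14 (cytosolic) and 11.32 and 10.60 (polysome-associated) after activation, against 10.97 and 11.22, and 10.77 and 10.42, ex vivo. In TFoxp3- cells it was at 12.66 and 11.98 (cytosolic) and 12.45 and 12.22 (polysome-associated) after activation, against 11.93 and 12.02, and 11.74 and 11.20, ex vivo. Psmb8, the immunoproteasome subunit with chymotrypsin-like activity, was at 11.98 and 11.98 in activated TFoxp3+ cytosolic mRNA, against 11.08 and 11.23 ex vivo (0.82, adjusted p = 0.017, limma), and this call was lost without array 1 or 5 (adjusted p up to 0.1). In TFoxp3+ polysome-associated mRNA it was at 11.83 and 11.90 after activation, against 11.31 and 11.44 ex vivo (0.49, not called). In TFoxp3- cells it was at 12.67 and 12.39 (cytosolic) and 12.85 and 12.33 (polysome-associated) after activation, against 12.19 and 12.37, and 12.13 and 11.86, ex vivo (0.25 and 0.59, not called). The immunoproteasome genes thus did not move as a set, with Psmb10 lower, Psmb9 not called and Psmb8 higher in 1 comparison of 4. The tissue-restricted subunits Psmb11, of thymic epithelium, and Psma8, of testis, had signals of 3.36 to 4.64 and 3.43 to 5.27 over all arrays, near or below the array medians.

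**Figure D2:**
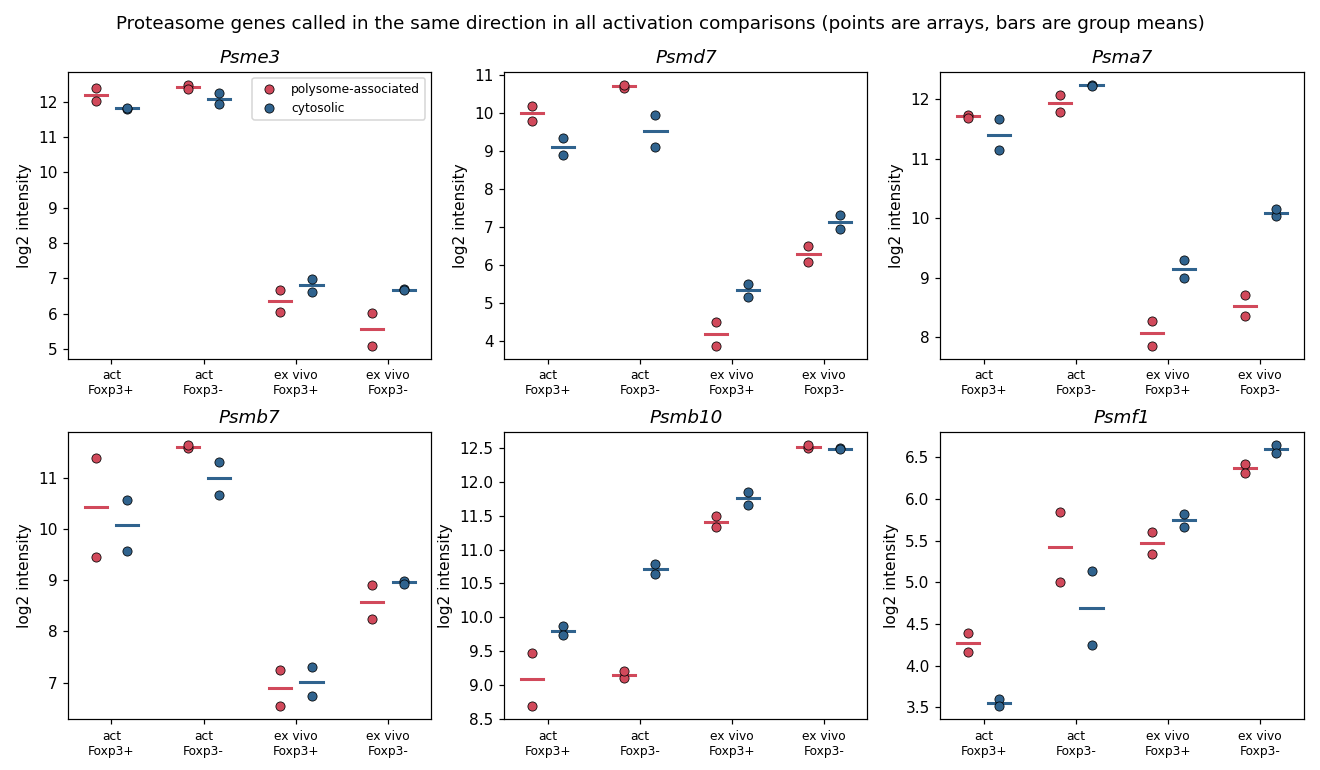
Log2 intensities (y axes) of 6 of the 8 genes called in 1 direction in all 4 activation comparisons, with the 4 populations on the x axis, polysome-associated mRNA in red and cytosolic mRNA in blue; points are arrays and bars are means of 2 arrays. Activated arrays lie above ex vivo arrays for Psme3, Psmd7, Psma7 and Psmb7 within each subset, and below them for Psmb10.

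Of the rest of the core, Psma7, an alpha subunit of the outer ring, was higher after activation by 2.26 and 3.65 in TFoxp3+ cells and by 2.14 and 3.41 in TFoxp3- cells (cytosolic, polysome-associated). Its polysome-associated signal was 11.73 and 11.69 in activated TFoxp3+ cells, against 7.85 and 8.27 ex vivo, and 11.79 and 12.08 in activated TFoxp3- cells, against 8.71 and 8.34 ex vivo. The activated arrays were all close to each other and far above the ex vivo ones. Psmb2, a structural beta subunit, was higher by 1.84 and 2.31 in TFoxp3+ cells and by 2.26 and 2.25 in TFoxp3- cells, whereas the other structural subunits Psmb1 and Psmb4 were not. Psmb1 was called lower in TFoxp3+ cytosolic mRNA (-1.81) and not in TFoxp3- cytosolic mRNA (-0.72), with no call for the difference between these responses (adjusted p = 0.383). Psmb4 was lower in 3 comparisons, by 1.46 in TFoxp3+ cytosolic and by 0.95 and 0.91 in TFoxp3- cytosolic and polysome-associated mRNA, the last being lost without array 4, 8 or 12 and under cyclic loess (-0.47, adjusted p = 0.152, the highest of the alternatives). Over the 5 alpha subunits no call was negative, and 1, 1, 2 and 3 were higher in TFoxp3+ cytosolic, TFoxp3+ polysome-associated, TFoxp3- cytosolic and TFoxp3- polysome-associated mRNA.

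Within the 19S cap the non-ATPases split into genes that rose and genes that fell. Psmd7, the lid subunit that pairs with the deubiquitinase Psmd14, had signals of 9.33 and 8.89 in activated TFoxp3+ cytosolic mRNA, against 5.50 and 5.15 ex vivo, and of 10.18 and 9.79 in activated TFoxp3+ polysome-associated mRNA, against 3.87 and 4.50 ex vivo. In TFoxp3- cells it was at 9.94 and 9.09 (cytosolic) and 10.66 and 10.73 (polysome-associated) after activation, against 7.31 and 6.95, and 6.50 and 6.08, ex vivo. All activated arrays were above all ex vivo arrays, but the ex vivo TFoxp3+ polysome arrays lay below the array medians, so that the size there is uncertain. Psmd7 was higher by 3.79 (SE 0.34, adjusted p = 3.36e-05, limma) and 5.80 in TFoxp3+ cells and by 2.38 (adjusted p = 0.000519) and 4.40 in TFoxp3- cells.

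Psmd14 itself, which cuts ubiquitin off the substrate, was called higher in TFoxp3- cells and not in TFoxp3+ cells. It was at 11.60 and 11.09 (cytosolic) and 11.21 and 11.56 (polysome-associated) in activated TFoxp3- cells, against 9.08 and 8.41, and 8.14 and 7.72, ex vivo (2.60, adjusted p = 0.00104, and 3.45, adjusted p = 0.000108, limma). In TFoxp3+ cells it was at 9.04 and 8.37 (cytosolic) and 7.70 and 8.32 (polysome-associated) after activation, against 7.41 and 8.32, and 8.05 and 7.38, ex vivo, and the differences of 0.85 and 0.30 were not called. The difference between the subsets' responses was itself called in polysome-associated but not in cytosolic mRNA, as given below.

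Psmd11, a lid subunit that clamps the cap to the core, showed the reverse order in cytosolic mRNA. It was at 9.76 and 10.37 in activated TFoxp3+ cytosolic mRNA, against 6.32 and 6.57 ex vivo (3.62, SE 0.31, adjusted p = 2.99e-05, limma), and at 8.55 and 8.73 in activated TFoxp3- cytosolic mRNA, against 7.92 and 7.62 ex vivo (0.87, not called). In polysome-associated mRNA Psmd11 was higher in both subsets, by 3.01 in TFoxp3+ and 2.53 in TFoxp3- cells. Psmd12, another lid subunit, was higher by 2.30 in TFoxp3+ polysome-associated mRNA and by 2.35 and 3.01 in TFoxp3- cytosolic and polysome-associated mRNA, with activated TFoxp3+ arrays as far apart as 7.76 and 9.62, and its call in TFoxp3- cytosolic mRNA was lost without array 3, 7 or 11 (2.01 without array 7, adjusted p = 0.132). Psmd1, a scaffold of the base, was higher in 3 comparisons, by 2.93 and 2.72 in TFoxp3+ cells and by 2.71 in TFoxp3- polysome-associated mRNA, and its activated TFoxp3+ cytosolic arrays were at 7.40 and 10.39.

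The genes of the cap that fell include Psmd4, a ubiquitin receptor, which was lower in all 4 comparisons by 1.65 and 0.90 in TFoxp3+ cells and by 1.10 and 1.25 (adjusted p = 0.00316, limma) in TFoxp3- cells. Psmd2, the second scaffold of the base, was at 7.58 and 8.35 in activated TFoxp3- cytosolic mRNA, against 10.08 and 9.66 ex vivo (-1.91, adjusted p = 0.00334), and at 6.63 and 7.09 in activated TFoxp3+ cytosolic mRNA, against 8.50 and 8.10 ex vivo (-1.44, adjusted p = 0.013). Neither change was called in polysome-associated mRNA (0.88 in TFoxp3+ and -0.97 in TFoxp3- cells). In TFoxp3+ cytosolic mRNA the lid subunit Psmd6 and the chaperone Psmd10 (gankyrin) were at 4.46 and 6.67 and at 3.95 and 5.00 after activation, against 7.33 and 7.62, and 6.56 and 6.07, ex vivo, so that 3 of these 4 activated values were near or under the array medians. Their differences were -1.91 (adjusted p = 0.0267) and -1.84 (adjusted p = 0.00646), and the first was lost without array 1, 5 or 13 (-0.81 without array 13, adjusted p up to 0.165) and the second without array 1 (adjusted p up to 0.0579). Psmd3, a lid subunit, was at 7.92 and 8.05 in activated TFoxp3+ polysome-associated mRNA, against 9.79 and 9.42 ex vivo (-1.62, adjusted p = 0.0454), and this call was lost under 15 of 21 alternatives (adjusted p up to 0.192).

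The ATPases differed among themselves. Psmc6 and Psmc1 were higher in activated TFoxp3- cells, by 2.29 and 1.93 in cytosolic mRNA and by 3.77 (adjusted p = 0.000157, limma) and 3.46 (adjusted p = 0.000347) in polysome-associated mRNA. In TFoxp3+ polysome-associated mRNA Psmc1 was also higher (2.97), and Psmc6 was not called. Psmc6 was at 10.15 and 10.09 in activated TFoxp3- polysome-associated mRNA, against 6.49 and 6.21 ex vivo, and Psmc1 at 11.57 and 11.57, against 8.45 and 7.77. These arrays were far apart between the states and close within them. Psmc2 was lower by 1.80 and 1.08 in TFoxp3+ cells and by 0.75 in TFoxp3- cytosolic mRNA, and Psmc3 by 1.63 in TFoxp3+ cytosolic mRNA, where it differed by -0.60 without a call in TFoxp3- cells and the difference between these responses was not called (adjusted p = 0.345). Of the 6 ATPases, 0, 2, 2 and 3 were higher and 2, 1, 1 and 0 lower in TFoxp3+ cytosolic, TFoxp3+ polysome-associated, TFoxp3- cytosolic and TFoxp3- polysome-associated mRNA.

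Genes that act on assembly and inhibition were lower or uncalled. Psmf1 (PI31), which inhibits the core in vitro, was at 3.60 and 3.52 in activated TFoxp3+ cytosolic mRNA, against 5.67 and 5.82 ex vivo (-2.19, adjusted p = 0.000674, limma), and at 5.14 and 4.25 in activated TFoxp3- cytosolic mRNA, against 6.65 and 6.55 ex vivo (-1.90, adjusted p = 0.00156). In polysome-associated mRNA it was at 4.16 and 4.39 in activated TFoxp3+ cells, against 5.60 and 5.34 ex vivo (-1.20), and at 5.84 and 5.01 in activated TFoxp3- cells, against 6.42 and 6.31 ex vivo (-0.94, adjusted p = 0.0454). The activated values stood near or under the array medians in most arrays, the call in TFoxp3+ polysome-associated mRNA was lost without array 2, 6 or 14 (adjusted p up to 0.106), and the last call was lost under 14 of 21 alternatives (adjusted p up to 0.306). Psmg3, of the chaperone pair that builds the alpha ring, was at 8.46 and 8.23 in activated TFoxp3+ polysome-associated mRNA, against 10.08 and 9.49 ex vivo (-1.44, adjusted p = 0.00301), and also fell in TFoxp3+ cytosolic mRNA (-1.72), as did Psmg1 (-1.36). None of the 4 chaperones of 20S assembly was called in activated TFoxp3- cells (limma, adjusted p under 0.05).

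Ex vivo, most proteasome genes had lower signals in TFoxp3+ than in TFoxp3- cells, and few of these differences passed the test. At an adjusted p under 0.15 (limma), the same threshold as for the activated subsets, 1 gene was higher and 9 lower in cytosolic mRNA, where 2.06% and 2.58% of all genes were called (4.64% in either direction), and 0 were higher and 4 lower in polysome-associated mRNA, where 1.62% and 2.25% were called (3.87% in either direction). At an unadjusted p under 0.05 the counts were 16 and 15 genes in either direction, beside 12.4% and 12.1% of all genes. The median difference was -0.58 and -0.47 (cytosolic, polysome-associated), beside 0.10 and 0.09 over all genes, and 33 of 43 differences were negative in each fraction. Both arrays of TFoxp3+ cells lay below both arrays of TFoxp3- cells for 29 and 26 of the 43 genes, beside 25.5% and 24.2% of all genes.

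Psmd7 had the clearest difference, with 5.50 and 5.15 in ex vivo TFoxp3+ cytosolic mRNA, against 7.31 and 6.95 in TFoxp3- cells (-1.81, adjusted p = 0.0259, limma), and 3.87 and 4.50 in polysome-associated mRNA, against 6.50 and 6.08 (-2.11, adjusted p = 0.0134). Psmd2 was at 8.50 and 8.10 in TFoxp3+ cytosolic mRNA, against 10.08 and 9.66 (-1.57), and at 8.90 and 8.24 in polysome-associated mRNA, against 10.06 and 9.99 (-1.46). For both genes the subsets did not overlap in either fraction, but the calls of Psmd7 were lost without array 3 or 5 in cytosolic mRNA (-1.63, adjusted p up to 0.292) and without array 4 in polysome-associated mRNA (-1.90, adjusted p = 0.159). Those of Psmd2 were lost without array 1, 3, 5 or 7 in cytosolic mRNA (adjusted p up to 0.511), and without array 2, 4, 6 or 8 and under cyclic loess in polysome-associated mRNA (adjusted p up to 0.447). Psmd11 (-1.32), Psmb7 (-1.94), Psmb8 (-1.12), Psma7 (-0.95), Psmc2 (-0.94), Psmc4 (-1.18) and Psmd4 (-0.96) completed the genes lower in cytosolic mRNA, and Psmb10 (-1.11, with 11.49 and 11.33 in TFoxp3+ against 12.50 and 12.54 in TFoxp3- cells) and Psmd4 (-0.89) those lower in polysome-associated mRNA. Psmg3 was the 1 gene higher in TFoxp3+ cells, with 9.995 and 10.03, against 8.98 and 9.04 (1.002, adjusted p = 0.111). The counts rested on every ex vivo array and on the estimate of spread. Without array 1, 3, 5 or 7 they fell to 1, 0, 0 and 1 in cytosolic mRNA, and without array 2, 4, 6 or 8 to 1, 0, 1 and 1 in polysome-associated mRNA, where it was 7 without array 14 or 16, whereas a fit to the 4 arrays of each comparison alone gave 28 (4 higher, 24 lower) and 15 (1 higher, 14 lower). The shares of all genes given above belong to the reported fit, and those under these alternatives are not given. The actin 3′ minus 5′ signal given above differs between these groups in the same arrays, and its part was not tested.

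After activation, most genes of the complex were lower in TFoxp3+ than in TFoxp3- cells in cytosolic mRNA. In cytosolic mRNA 28 of 43 genes were lower and 1 was higher in activated TFoxp3+ than in activated TFoxp3- cells (adjusted p under 0.15, limma), where 12.2% and 13.8% of all genes were called lower and higher (26.0% in either direction). In polysome-associated mRNA 15 were lower and 1 was higher, where 13.7% and 18.7% were called (32.4% in either direction). The median was -1.09 and -0.71, beside 0.13 and 0.20 over all genes, and 38 and 37 of 43 differences were negative. Cyclic loess, which brought the median of all genes to 0.02 and 0.03, left medians of -0.59 in both fractions and called 16 lower and 1 higher in cytosolic and 13 lower and 2 higher in polysome-associated mRNA. The shares of all genes called under loess are not given. Called lower in cytosolic mRNA were 4 of 5 alpha subunits, all 6 ATPases, 7 of 11 non-ATPases, all 3 immunoproteasome subunits and all 3 chaperones of 19S assembly, and 0 of 4 activators and 0 of 2 constitutive catalytic subunits were called.

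**Figure D3:**
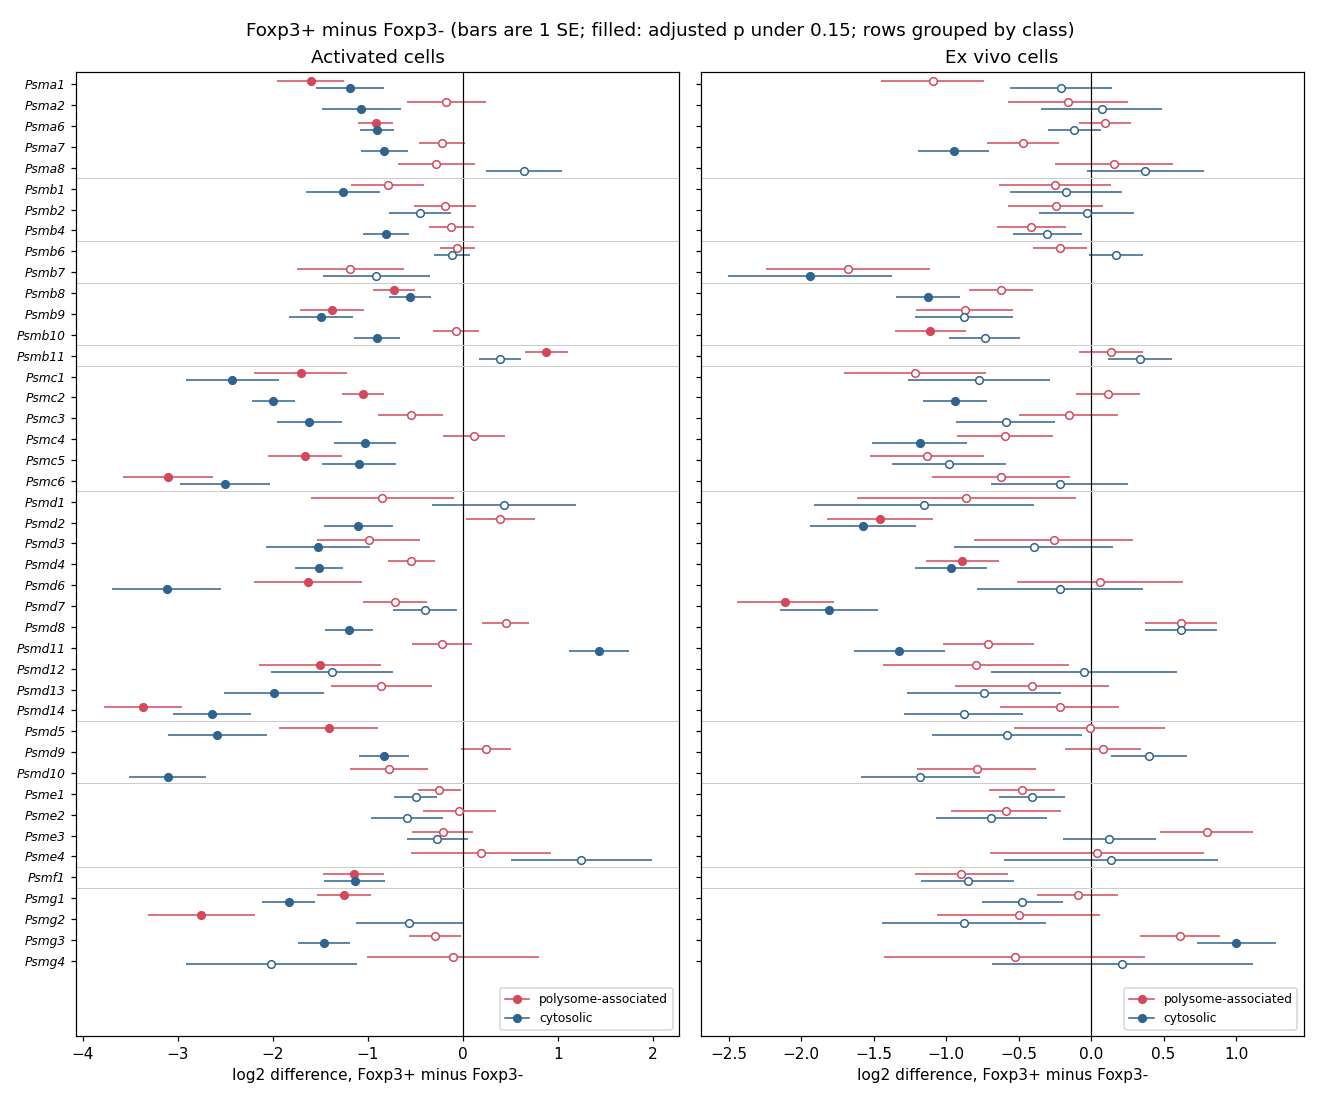
Log2 differences, TFoxp3+ minus TFoxp3-, for the 43 proteasome genes in activated (left) and ex vivo cells (right), with polysome-associated mRNA in red and cytosolic mRNA in blue; points are fitted differences, bars are 1 SE and filled points passed an adjusted p under 0.15. Most points lie left of 0 in both panels, and Psmd14 reaches -3.37 in activated polysome-associated mRNA.

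Psmd14 was lower in both fractions, at 9.04 and 8.37 in activated TFoxp3+ cytosolic mRNA, against 11.60 and 11.09 in activated TFoxp3- cells (-2.64, SE 0.41, adjusted p = 0.0035, limma), and at 7.70 and 8.32 in polysome-associated mRNA, against 11.21 and 11.56 (-3.37, adjusted p = 0.000768). Psmc6 was at 6.18 and 7.85 in activated TFoxp3+ polysome-associated mRNA, against 10.15 and 10.09 (-3.11, adjusted p = 0.00239). Neither gene showed overlap between the subsets. Psmd10 and Psmd6 were lower by 3.11 (adjusted p = 0.00144) and 3.12 (adjusted p = 0.0072) in cytosolic mRNA, where their activated TFoxp3+ values were low as given above, and the chaperone Psmd5 was at 5.48 and 6.92, against 8.68 and 8.89 (-2.59, adjusted p = 0.0113). In polysome-associated mRNA Psmd10 was not called (-0.78). Psmg2, of the other chaperone pair of the alpha ring, was at 5.90 and 4.31 in activated TFoxp3+ polysome-associated mRNA, against 7.64 and 8.08 (-2.76, adjusted p = 0.0101), and Psmc1 at 10.77 and 8.96, against 11.57 and 11.57 (-1.71, adjusted p = 0.0387), a call lost without array 16 (-0.80, adjusted p = 0.166).

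The immunoproteasome subunits were lower in activated TFoxp3+ cells by 0.55 (Psmb8), 1.49 (Psmb9) and 0.91 (Psmb10) in cytosolic mRNA and by 0.73 (Psmb8) and 1.38 (Psmb9) in polysome-associated mRNA, where Psmb10 differed by -0.07. The call of Psmb8 in cytosolic mRNA was lost under 15 of 21 alternatives (adjusted p up to 0.728), and that in polysome-associated mRNA without array 10 (-0.46, adjusted p = 0.232). Higher in activated TFoxp3+ cells were Psmd11 in cytosolic mRNA, with 9.76 and 10.37, against 8.55 and 8.73 (1.43, adjusted p = 0.0162, limma), and Psmb11 in polysome-associated mRNA, with 4.64 and 4.19, against 3.36 and 3.72 (0.88, adjusted p = 0.0237), and the Psmb11 values were all below the array medians. The interquartile range of all genes was also narrower in activated TFoxp3+ arrays (2.62 to 2.90) than in activated TFoxp3- arrays (3.03 to 3.43), and its part in these differences was not tested. A list of 6 stromal and endothelial markers averaged 4.45 to 5.09 in activated TFoxp3+ and 3.94 to 4.35 in activated TFoxp3- arrays, with at most 2 of the 6 above the array medians. A list of 8 myeloid markers averaged 4.62 to 4.89 and 3.65 to 4.18, with 2 of the 8 above the medians in each activated TFoxp3+ group and at most 1 in activated TFoxp3- groups. Single markers stood higher than these averages, as Cd68 at 6.07 to 7.36 in activated TFoxp3+ and 2.68 to 4.43 in activated TFoxp3- arrays. Pecam1, of the stromal and endothelial list, was at 5.26 to 8.13 and 3.80 to 6.71. The part of these signals was not tested either. With only the 4 arrays of each comparison in the fit, 5 genes (0 higher, 5 lower) were called in cytosolic and 4 (0 higher, 4 lower) in polysome-associated mRNA. The shares of all genes called in that fit are not given.

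The difference between the subsets' responses to activation was called for few genes. In cytosolic mRNA 1 was higher and 2 lower (adjusted p under 0.05, limma, beside 0.856% and 1.21% of all genes, 2.07% in either direction), and 14 had an unadjusted p under 0.05, beside 15.4% of all genes. Psmd11 rose more in TFoxp3+ than in TFoxp3- cells, by 2.75 (SE 0.45, adjusted p = 0.0143), and the response of Psmg3 was lower in TFoxp3+ cells by 2.46 (SE 0.39, adjusted p = 0.0131), as was that of Psmd8, a lid subunit, by 1.82 (SE 0.35, adjusted p = 0.027). Psmg3 was at 7.98 and 8.61 in activated TFoxp3+ cytosolic mRNA, against 9.995 and 10.03 ex vivo, and at 10.01 and 9.49 in activated TFoxp3- cells, against 8.98 and 9.04 ex vivo, so that the order of the subsets turned round with activation. In polysome-associated mRNA 0 were higher and 1 lower (beside 1.15% and 1.43% of all genes, 2.58% in either direction), namely Psmd14 (-3.15, SE 0.58, adjusted p = 0.0191). The calls in cytosolic mRNA numbered 0, 0, 1 and 1 without array 1, 3, 5 or 7, 6 without array 13 or 15 and 5 without array 14 or 16. In polysome-associated mRNA they numbered 2 without array 14 and 5 without array 16, and Psmd14 was lost without array 2, 4, 8 or 12 (adjusted p up to 0.0964).

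Polysome-associated and cytosolic mRNA were set side by side to ask how the signal of each gene differed between the fractions. Each signal is relative to the other genes of its array, so the difference gives no share of a transcript engaged by ribosomes. Ex vivo, 0 of 43 genes were called in either subset (adjusted p under 0.05, limma, where 0.0303% of all genes were higher and 0.00607% lower in TFoxp3+ cells, 0.0364% in either direction, and 0.0303% higher and 0.0303% lower in TFoxp3- cells, 0.0607% in either direction), and 4 genes in each had an unadjusted p under 0.05, beside 4.69% and 4.25% of all genes. The lowest p belonged to Psma7, whose polysome-associated signal was 7.85 and 8.27 in ex vivo TFoxp3+ cells, against 9.30 and 8.99 in cytosolic mRNA (-1.09, adjusted p = 0.319), and 8.71 and 8.34 in ex vivo TFoxp3- cells, against 10.04 and 10.15 (-1.56, adjusted p = 0.0792). The fractions did not overlap for Psma7, although it did not pass over all genes. Without array 13 or 15, 1 gene was called in ex vivo TFoxp3- cells. Medians over the 43 were -0.12 and -0.15 in ex vivo TFoxp3+ and TFoxp3- cells.

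In activated TFoxp3+ cells, 5 of 43 genes were higher and 0 lower in polysome-associated than in cytosolic mRNA, where 2.31% and 2.36% of all genes were called (4.66% in either direction). The median over the 43 was 0.65, beside -0.05 over all genes, 35 of 43 differences were positive, and for 23 of 43 both polysome arrays were above both cytosolic arrays, beside 16.6% of all genes. Psmd10 signals were 7.45 and 7.93 (polysome-associated), against 3.95 and 5.00 (cytosolic), a difference of 3.21 (SE 0.41, adjusted p = 0.00325, limma). Psmd2 was at 9.58 and 9.31, against 6.63 and 7.09 (2.59, adjusted p = 0.00437), and Psmd6 at 8.48 and 8.11, against 4.46 and 6.67 (2.73, adjusted p = 0.0229). The last 2 called genes were Psmd8, at 10.59 and 10.91, against 9.10 and 9.11 (1.64, adjusted p = 0.0064), and the ATPase Psmc2 (1.31, adjusted p = 0.00958). All 5 belong to the 19S cap or its assembly, and in all 5 the fractions were well apart. For Psmd10 and Psmd6 the cytosolic values were near or under the array medians in part, and Psmd6 was lost without array 14 (2.54, adjusted p = 0.059). Leaving out array 13, 15 or 16 raised the count to 10, 11 and 9, and 0 of the 43 were called with array weights or with the 4 arrays of this comparison alone.

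In activated TFoxp3- cells 1 gene was higher and 1 lower in polysome-associated mRNA (beside 2.36% and 1.52% of all genes, 3.88% in either direction), and the median was 0.31, beside -0.12 over all genes. Psmd11 signals were 10.45 and 9.96 (polysome-associated), against 8.55 and 8.73 (cytosolic), a difference of 1.57 (adjusted p = 0.0219, limma). Psmb10 was at 9.10 and 9.20, against 10.78 and 10.63 (-1.55, adjusted p = 0.00813). For Psmd11 and Psmb10 the fractions did not overlap. In the reported fit Psmb10 is the only proteasome gene called lower in polysome-associated than cytosolic mRNA in any of the 4 populations. Psma7 in ex vivo TFoxp3- cells, given above, had a difference of like size and no call. The call of Psmd11 was lost without array 9, 10 or 11 (adjusted p up to 0.1), and that of Psmb10 only in a fit to the 4 arrays compared (adjusted p = 0.192). Over the 43 genes 1 was called without array 10 or 11 and 4 without array 13 or 15.

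**Figure D4:**
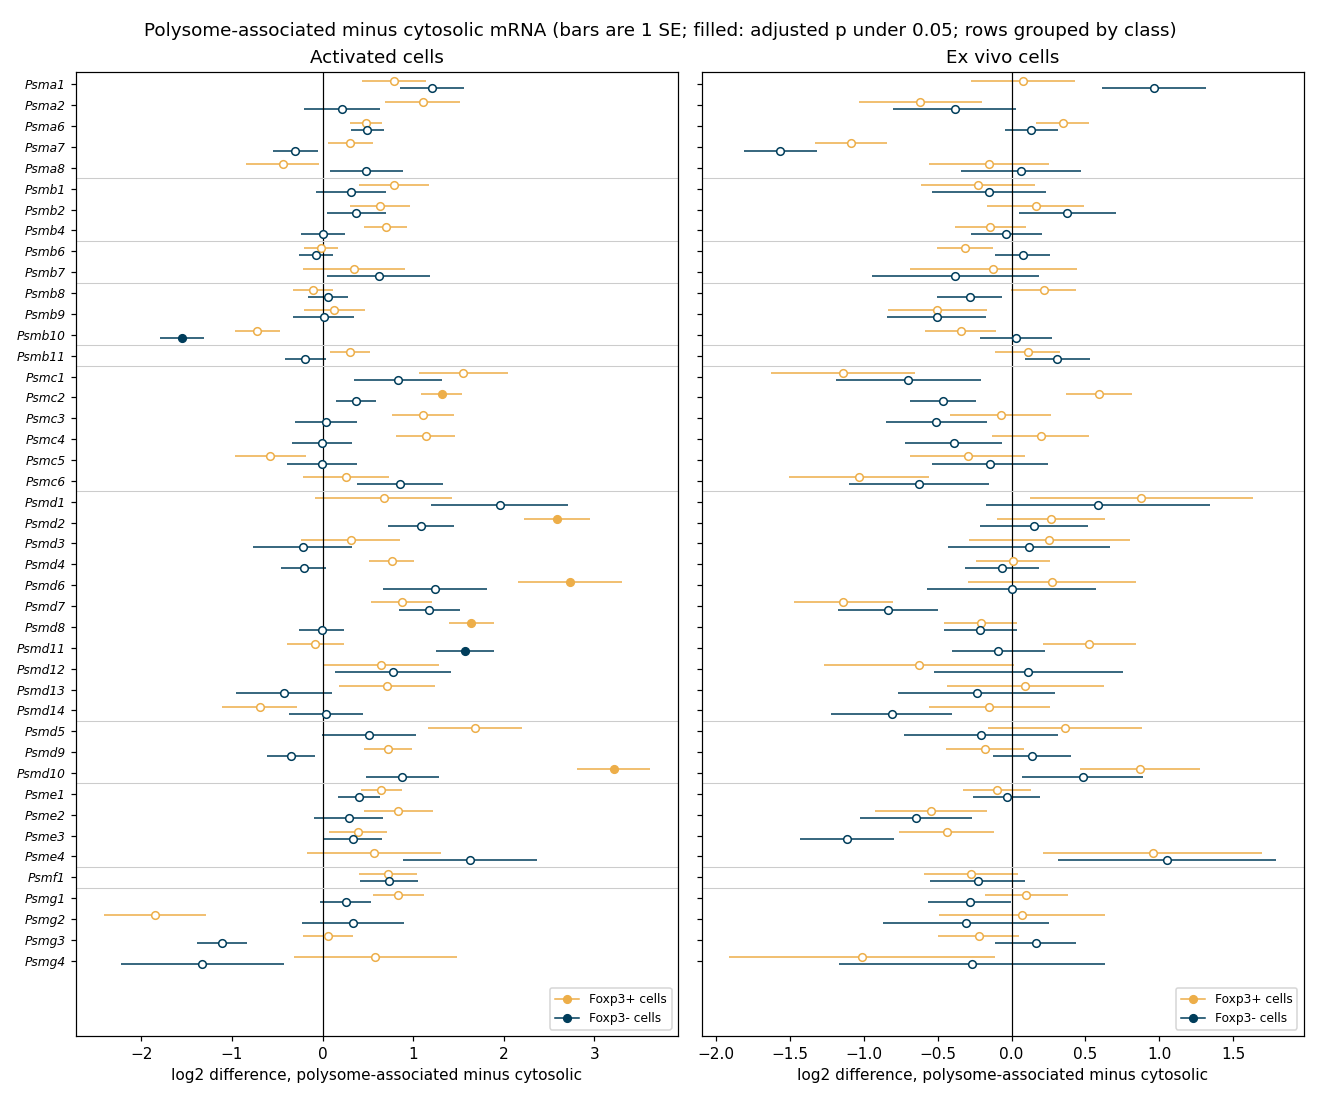
Log2 differences, polysome-associated minus cytosolic mRNA, for the 43 proteasome genes in activated (left) and ex vivo cells (right), with TFoxp3+ cells in yellow and TFoxp3- cells in dark blue; points are fitted differences, bars are 1 SE and filled points passed an adjusted p under 0.05. In activated cells the points lie mostly right of 0, with medians of 0.65 in TFoxp3+ and 0.31 in TFoxp3- cells, and no point is filled ex vivo.

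The change of the polysome-minus-cytosolic difference with activation had a median of 0.75 in TFoxp3+ and 0.52 in TFoxp3- cells over the 43 genes, beside -0.04 and -0.11 over all genes, and was positive for 34 and 33 of them. No gene of the 43 was called (adjusted p under 0.05, limma; 0.17% of all genes were higher and 0.109% lower in TFoxp3+ cells, 0.279% in either direction, and 0.091% higher and 0.0668% lower in TFoxp3- cells, 0.158% in either direction), and 15 and 9 had an unadjusted p under 0.05, beside 11.8% and 10.5% of all genes. The lowest adjusted p was 0.0594 for Psmd8 in TFoxp3+ cells (1.85) and 0.118 for Psmb10 in TFoxp3- cells (-1.58). The medians kept their sign with arrays centred on their median (0.81 and 0.61) and under cyclic loess (0.54 and 0.68). In TFoxp3+ cells 3 genes were called without array 13, 2 without array 15 or 16 and 1 without array 10, 12 or 14, and in TFoxp3- cells 1 without array 14 or 16.

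Between the activated subsets, the polysome-minus-cytosolic difference was larger in TFoxp3+ than in TFoxp3- cells for 2 genes and smaller for 1 (adjusted p under 0.15, limma, beside 3.83% and 3.65% of all genes, 7.48% in either direction), with a median of 0.49, beside 0.06 over all genes, and of 0.19 under cyclic loess. Psmd8 differed by 1.65 (SE 0.35, adjusted p = 0.0388) and Psmd10 by 2.33 (SE 0.58, adjusted p = 0.0647), and Psmd11 by -1.65 (SE 0.45, adjusted p = 0.084), the last being lost without array 9 or 10 (adjusted p up to 0.183). For Psmd8 the polysome-associated signals of the activated subsets were 10.59 and 10.91 in TFoxp3+ and 10.03 and 10.57 in TFoxp3- cells, whereas the cytosolic signals were 9.10 and 9.11 in TFoxp3+ and 10.11 and 10.51 in TFoxp3- cells. The subsets stood apart in the cytosolic signal, lower in TFoxp3+ cells, and next to each other in the polysome-associated signal. The count was 9, 13 and 11 without array 13, 15 or 16, 5 without array 11 or 14, and 0 with array weights or with the 8 activated arrays alone. Ex vivo, 0 of 43 and 0 of 16475 genes were called (adjusted p under 0.3), and 1 of the 43 and 193 of all genes had an unadjusted p under 0.05.

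**Figure D5:**
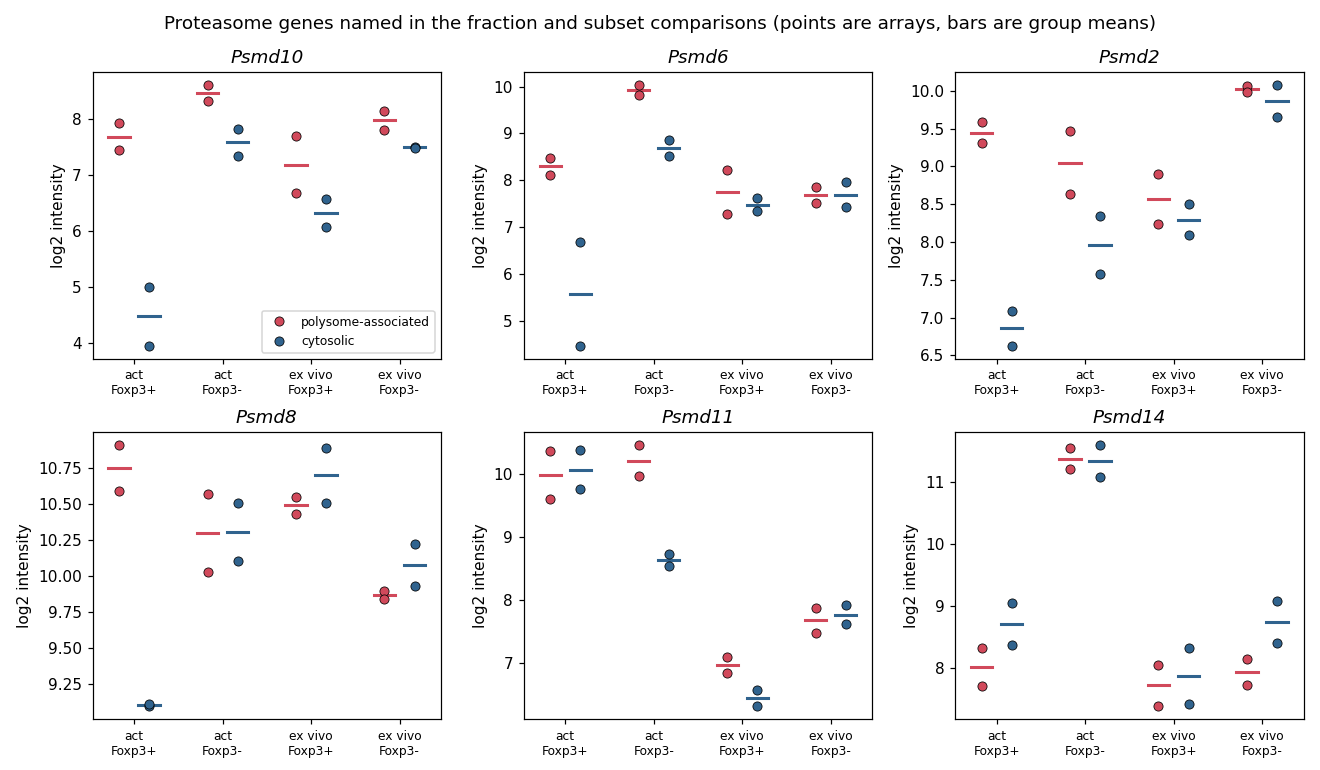
Log2 intensities (y axes) of 6 subunits or chaperones of the 19S cap named in the comparisons of RNA fractions and subsets, with the 4 populations on the x axis, polysome-associated mRNA in red and cytosolic mRNA in blue; points are arrays and bars are means of 2 arrays. For Psmd10, Psmd6, Psmd2 and Psmd8 the lowest pair is activated TFoxp3+ cytosolic mRNA, and for Psmd14 both activated TFoxp3- pairs stand above all others.

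Genes that work beside the proteasome were taken as lists, whose counts with activation stand beside 16.9%, 14.7%, 13.6% and 14.1% of all genes called higher and 14.4%, 14.6%, 12.5% and 16.4% called lower in TFoxp3+ cytosolic, TFoxp3+ polysome-associated, TFoxp3- cytosolic and TFoxp3- polysome-associated mRNA. Of 14 that dock on it or deliver ubiquitinated proteins, 2 and 6 were higher and 3 and 1 lower after activation in TFoxp3+ cells (cytosolic, polysome-associated), and 6 and 7 were higher and 1 and 1 lower in TFoxp3- cells, with medians of 0.41, 1.23, 0.64 and 1.49. The shuttle receptor Rad23b was at 9.66 and 8.999 in activated TFoxp3+ polysome-associated mRNA, against 5.37 and 5.39 ex vivo (3.95, adjusted p = 0.000134, limma). Between the activated subsets, 0 were higher and 6 lower in cytosolic and 0 higher and 4 lower in polysome-associated mRNA, beside 12.2% and 13.7% of all genes called lower. Uchl5, a deubiquitinase of the cap, was at 6.35 and 6.20 in activated TFoxp3+ polysome-associated mRNA, against 10.87 and 10.94 in activated TFoxp3- cells (-4.63, adjusted p = 0.00874), and Txnl1, a thioredoxin-like protein bound to the cap, at 6.93 and 7.12, against 9.50 and 9.59 (-2.52, adjusted p = 0.000847). The calls of the list were all lower in this comparison, as did 15 of 16 and 28 of 29 called proteasome genes. In the polysome-minus-cytosolic difference between activated subsets, Rad23b (2.55), Ubqln2 (2.49), also a shuttle, and Zfand5 (1.61) were larger in TFoxp3+ cells.

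Of 8 genes that control proteasome transcription, Nfe2l1 (NRF1), which induces subunits when degradation falters, was not called with activation in any comparison, with differences of 0.57 and -0.05 in TFoxp3+ and -0.33 and -0.48 in TFoxp3- cells (cytosolic, polysome-associated), and was lower in ex vivo TFoxp3+ than TFoxp3- cells by 1.46 (adjusted p = 0.0329, limma) and 1.02. Ngly1, the glycanase that activates NRF1, was lower in activated TFoxp3- cytosolic mRNA by 3.61 against ex vivo. Its activated signals there were 2.97 and 4.37, against 8.02 and 6.54, and lay under the array medians, so that the size is uncertain. In polysome-associated mRNA of these cells it was at 6.72 and 7.49 after activation, against 8.39 and 7.70 ex vivo. Over the list 2, 1, 1 and 1 genes were higher and 2, 1, 2 and 2 lower with activation in TFoxp3+ cytosolic, TFoxp3+ polysome-associated, TFoxp3- cytosolic and TFoxp3- polysome-associated mRNA. Of 9 genes of antigen processing and its interferon-linked regulators, 3, 3, 2 and 3 were higher and 4, 2, 3 and 5 lower in the same order, beside the shares of all genes given above. Irf1, a transcription factor for immunoproteasome genes, fell in all 4, by 1.62, 1.92, 1.87 and 1.34, and Tap2, a subunit of the peptide transporter, fell in 3, with differences of -3.06 in TFoxp3+ cytosolic and -3.58 and -3.91 in TFoxp3- cytosolic and polysome-associated mRNA. Calr, the chaperone calreticulin, rose by 3.88, 3.63, 3.01 and 3.54.

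Of the 2 genes that share only the spelling, Psmc3ip was higher after activation in TFoxp3- cells by 3.38 (adjusted p = 0.0202, limma) and 3.83 in cytosolic and polysome-associated mRNA, and its differences of 2.17 and 2.41 in TFoxp3+ cells were not called, with activated polysome arrays at 9.24 and 5.57. Psme3ip1 was not called in any of the comparisons.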

How the data were processed

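The deposited table holds log2 intensities that the authors produced by robust multi-array averaging (RMA, named in the submitters' processing notes) of Affymetrix arrays, one column per array, after amplification of polysome-associated and cytosolic RNA. The sources used here do not state whether RMA was run on all 16 arrays at once. The 64 control sets were left out, and 16475 genes remained without a filter on signal, 695 of them without a symbol in the annotation. A model with 8 group means was fitted to all arrays with limma 3.58.1 in R 4.3.3 (residual df 8, prior df 2.87), 18 contrasts were tested, and p-values were adjusted over all genes (Benjamini-Hochberg). Thresholds followed the study's methods for translation (0.15 after activation, 0.3 ex vivo) and for the subsets after activation (0.15). The study used them with other tests, and for translation with anota, which corrects polysome-associated for cytosolic mRNA by regression. Its counts and those of limma here are therefore not like for like. The same 0.15 was chosen here for the subsets ex vivo, and 0.05 otherwise. Differences are activated minus ex vivo, TFoxp3+ minus TFoxp3-, and polysome-associated minus cytosolic. The members and the gene lists were chosen with earlier results of these data known. Values per array were given for the catalytic subunits, without Psmb5, which is not analysed here, and for up to 4 called genes per comparison and direction with the largest difference whose arrays did not overlap. Of the related lists, up to 3 called genes with the smallest adjusted p were named per list and comparison. Any other gene named was chosen after its values were seen. Alternatives were fits to the groups compared alone, array weights, cyclic loess, centring of each array on its median, only genes above the median mean, and each array left out in turn. The fit was tried on simulated data in which all groups of a gene had the same spread. That simulation does not cover groups of unequal spread. The number of arrays, 2 per group, limits the precision. Promoter windows and gene positions came from RefSeq (GRCm38.p6), and the scripts used Python 3.11.15 with pandas 2.3.3 and matplotlib 3.10.9.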

Additional observations from a re-analysis of the deposited data

Results flagged for a closer look

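For 7 values, the effect in one subset of cells differed from that in the other by the test of the difference itself (limma). The threshold was an adjusted p under 0.15 for the difference between fractions and under 0.05 for the response to activation. Of the 43 genes, 3 were called for the fractions, beside 7.48% of all genes. For the response, 3 were called in cytosolic and 1 in polysome-associated mRNA, beside 2.07% and 2.58% of all genes. The polysome-associated minus cytosolic difference in activated cells was larger in TFoxp3+ than in TFoxp3- cells for Psmd10 by 2.33 (SE 0.58, adjusted p = 0.0647; 0.023 to 0.41 over the alternatives) and for Psmd8 by 1.65 (SE 0.35, adjusted p = 0.0388; 0.0285 to 0.415), and for Psmd11 the value was -1.65 (SE 0.45, adjusted p = 0.084; 0.0292 to 0.478). The response of cytosolic mRNA to activation differed between TFoxp3+ and TFoxp3- cells by 2.75 for Psmd11 (SE 0.45, adjusted p = 0.0143; 0.00672 to 0.0816), by -2.46 for Psmg3 (SE 0.39, adjusted p = 0.0131; 0.00615 to 0.0739) and by -1.82 for Psmd8 (SE 0.35, adjusted p = 0.027; 0.0195 to 0.133). That of polysome-associated mRNA differed by -3.15 for Psmd14 (SE 0.58, adjusted p = 0.0191; 0.0134 to 0.0964). Psmd8 and Psmd11 were named in both kinds of comparison, which share the activated cytosolic arrays. Groups of 2 arrays were too small to test for single outlying arrays.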

How the results depend on the processing

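Of 90 counts of called proteasome genes under the settings other than leaving out an array, 65 stayed within 1.5 times the reported count. A count of 0 in both fits was taken as unchanged and shows no stability. No called difference of a named member changed sign. With only the arrays of the groups compared, activation in TFoxp3+ cells gave 16 calls in cytosolic and 9 in polysome-associated mRNA. The subsets then gave 28 and 15 calls ex vivo and 5 and 4 after activation (cytosolic, polysome-associated), and polysome-associated minus cytosolic mRNA gave 2 in ex vivo TFoxp3-, 0 in activated TFoxp3+ and 0 in activated TFoxp3- cells, with 0 for its difference between the activated subsets. With array weights, the subsets gave 29 and 21 calls ex vivo and 18 in activated cytosolic mRNA, the fractions gave 1 in ex vivo TFoxp3+, 4 in ex vivo TFoxp3-, 0 in activated TFoxp3+ and 1 in activated TFoxp3- cells, the difference between activated subsets 0, the change with activation in TFoxp3- cells 1, and the difference between responses in polysome-associated mRNA 0. Cyclic loess gave 6 and 1 calls between the subsets ex vivo, 17 in activated cytosolic mRNA, 4 between the fractions in activated TFoxp3- cells and 3 for the difference between responses in polysome-associated mRNA. The share of all genes called under each alternative is not given, here or above. Without those shares, these counts cannot show whether a change was particular to the proteasome genes or common to all genes. Array weights were 0.35 to 0.38 in activated TFoxp3+, 0.53 to 0.63 in activated TFoxp3- and 1.58 to 2.96 in ex vivo arrays. The reported fit took 1 spread per gene for all groups, and its SE and adjusted p rest on that. The causes of the moved counts were not tested.

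Leaving out each array in turn, activation gave 16 to 28 and 11 to 20 calls in TFoxp3+ and 10 to 24 and 14 to 24 in TFoxp3- cells (cytosolic, polysome-associated). The subsets gave 0 to 11 and 0 to 7 calls ex vivo and 20 to 34 and 11 to 22 after activation. The fractions gave 5 to 11 in activated TFoxp3+, 1 to 4 in activated TFoxp3-, 0 to 0 in ex vivo TFoxp3+ and 0 to 1 in ex vivo TFoxp3- cells. Their difference between subsets gave 3 to 13 after activation and 0 to 0 ex vivo, their change with activation 0 to 3 in TFoxp3+ and 0 to 1 in TFoxp3- cells, and the difference between responses 0 to 6 in cytosolic and 0 to 5 in polysome-associated mRNA. A group left with 1 array was assumed to vary like the other groups. No paired analysis was possible because the labels number each array separately, the groups share no number, and no label ties an array to another from the same cells. Signals near the array medians (4.84 to 5.06), as for Psmf1, Psmb11, Psma8 and part of Psmd10, Psmd6 and Psmd7, limit the size of the differences that can be read.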
